A study of Mus musculus with 31 samples.

Results

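The heat shock proteins and their DnaJ co-chaperones were described in single olivocochlear neurons of the mouse brainstem. Members were the genes of the authors' normalized table whose symbol begins with Hspa, Hspb, Hspd, Hspe, Hsph, Hsp90a, Hsp90b, Dnaja, Dnajb or Dnajc followed by a number, without pseudogene names. There were 65 such genes among the 55421 mouse genes of the raw count table. Each library held the cytoplasm of 1 red fluorescent neuron drawn into the pipette after a patch-clamp recording in an acute brainstem slice. The 18 lateral olivocochlear (LOC) cells came from the lateral superior olive and the 13 medial olivocochlear (MOC) cells from the ventral nucleus of the trapezoid body. All cells came from ChAT-IRES-Cre; tdTomato mice per the series' design text, while wild-type is the genotype in the labels. The fluorescence therefore marks cells with a history of activity at the choline acetyltransferase gene and does not by itself separate LOC from MOC cells. All 31 cells share slice preparation, recording and aspiration, and no cells without a recording were analysed here. No age, temperature or animal is given in the labels, so the number of animals behind the cells is unknown and a group is treated as a single sample. For that reason no p-value is given, and the comparisons describe these libraries alone.

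Chaperones of the HSP70 and HSP90 families bind unfolded or partly folded proteins and release them in cycles driven by ATP. DnaJ proteins deliver clients to HSP70 and start its ATP hydrolysis, and HSP110 proteins exchange the nucleotide. A small set of these genes is switched on within minutes to hours of heat or other protein damage by heat shock factor 1, which binds short repeats called heat shock elements. In neurons the same machinery also takes the clathrin coat off vesicles and keeps synaptic vesicle proteins folded.

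The high values of 1 cell described below concern Hspa1a, Hspb1, Hsph1 and Hspe1 among other members. Hspa1b is nearly the same gene as Hspa1a. Promoter sequences of these 5 heat-inducible members, chosen after those values were seen, are shown first. They were taken from RefSeq on build GRCm38.p6, whose table held 53 of the 65 members, and run 5′ to 3′ on the strand of the gene. Capitals mark the heat shock element letters, GAANNTTC or TTCNNGAA, searched on both strands. For Hspa1a (chr17:34972157-34972356, minus strand), Hspa1b (chr17:34959239-34959438, minus strand) and Hspb1 (chr5:135887719-135887918, plus strand) the 200 bases before the start site are given. For Hsph1 (chr5:149636351-149636380, minus strand) and Hspe1 (chr1:55088053-55088082, plus strand) only the 30 bases around the element are given.
Hspa1a: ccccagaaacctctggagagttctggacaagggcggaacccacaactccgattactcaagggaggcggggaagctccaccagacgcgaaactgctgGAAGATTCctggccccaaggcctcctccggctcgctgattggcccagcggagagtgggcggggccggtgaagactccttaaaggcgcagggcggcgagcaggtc
Hspa1b: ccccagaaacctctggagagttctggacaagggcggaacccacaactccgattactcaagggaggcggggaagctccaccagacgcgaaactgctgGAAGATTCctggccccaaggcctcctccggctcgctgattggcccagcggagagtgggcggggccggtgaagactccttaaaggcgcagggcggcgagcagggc
Hspb1: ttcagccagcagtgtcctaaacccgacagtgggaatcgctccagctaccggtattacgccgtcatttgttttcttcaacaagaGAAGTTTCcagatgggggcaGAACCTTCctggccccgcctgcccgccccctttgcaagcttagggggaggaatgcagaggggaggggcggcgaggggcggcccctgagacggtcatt
Hsph1: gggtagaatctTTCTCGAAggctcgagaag
Hspe1: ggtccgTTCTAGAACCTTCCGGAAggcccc
The Hspa1a and Hspa1b windows carry the same base at 199 of 200 positions, so these letters do not separate the genes. In the 200 bases before the start site, these letters were found in 12 of the 53 members with an entry (22.6%) and in 11.8% of 27025 genes. They were found in 7 of the 8 heat-inducible members with an entry, Dnajb1 being the exception. All 5 members shown carry them. Dnajb1, which was also high in LOC cell 13, the cell described below, is not shown. Dnajb12, Dnajc13 and Dnajb2, which had their highest value in that cell, carry none of these letters either. The longer element, in which 3 alternating units of GAA and TTC follow each other with 2 bases between them and which contains the shorter one, was found in Dnajb6, Hspd1 and Hspe1 and in 0.43% of genes. Hspd1 and Hspe1 lie head to head and their windows overlap, so they share these letters. The endoplasmic reticulum stress element ERSE was found in Hspa5, Hsp90b1 and Dnajc3, whose products work in the endoplasmic reticulum (ER), and in 0.12% of genes. A match of letters is a description of the sequence and no measure of binding.

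Library totals ran from 356412 to 1404896 counts in LOC and from 598028 to 2627174 in MOC cells. Levels are given as CPM, the counts of a gene divided by the counts of all mouse genes in that library, times 1000000. The totals of 3 cholinergic genes (Chat, Slc18a3 and Slc5a7), which define the labelled cell type, were below 10 reads in 4 LOC and 5 MOC cells. These libraries hold few or no reads of the defining genes of their label. The total was 0 in LOC cells 14 and 16 and in MOC cell 8, and up to 9 in the others. The summed level of 12 microglial markers ran from 32.4 to 2253 CPM in LOC and from 40.7 to 11139 CPM in MOC cells. It was highest in MOC cell 8, which also held no read of the cholinergic genes. Oligodendrocyte markers exceeded 10% of the counts in 4 LOC and 2 MOC cells. Of the 65 members, 62 were measured, meaning that 25% or more of the cells in LOC or in MOC held a read, and 14 had a read in all 31 libraries. Hspa1l, Hspb7 and Dnajb13 were not measured, and no member was at 0 in every cell. Members with a read numbered 34 to 61 per LOC cell and 39 to 62 per MOC cell. After thinning every library to 350000 counts the medians were 47 in LOC and 45 in MOC, against 49.5 and 50 before. Members took 0.70% of all LOC counts and 0.82% of all MOC counts. Fewer copies per cell and less RNA drawn into the pipette cannot be told apart in these data.

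The constitutive cytosolic chaperones had the highest levels per length. Hsp90ab1, the constitutive HSP90 of the cytosol, reached 514 CPM per 1000 bases of exon in the summed LOC counts and 640 in the summed MOC counts. Hspa8, the constitutive HSP70 that also removes clathrin coats, reached 256 and 311 on the same scale. Hsp90aa1, the HSP90 paralog that also responds to heat, reached 190 and 259. These 3 genes held 50.3% of all member counts. The same order, Hsp90ab1 first, was found in both groups. Below them came Hspa5, the HSP70 of the ER, with 73.0 and 96.5 CPM per 1000 bases. The other 6 of the 10 highest were Hspb8, Hspe1, Hsp90b1, Dnajc8, Dnaja2 and Hspa9, each between 38.3 and 67.6 over all cells.

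**Figure D1:**
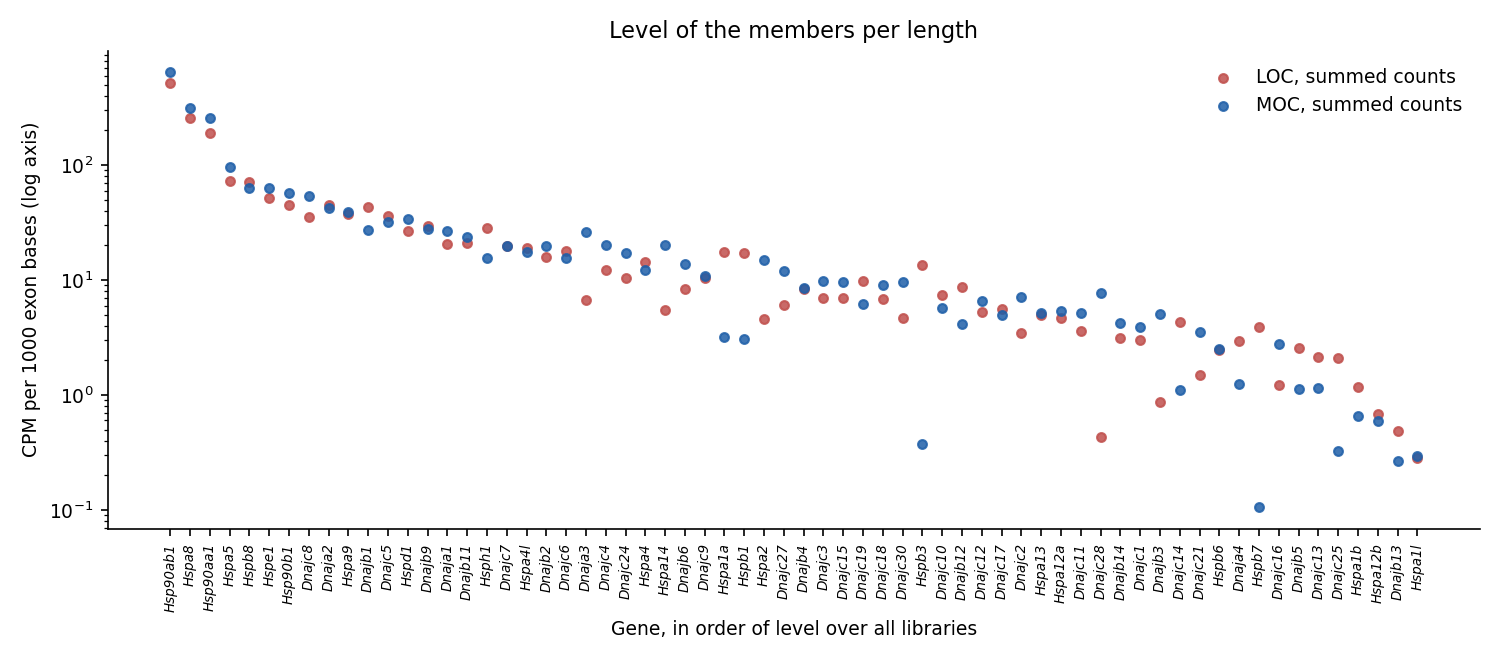
Level of the members reported here in CPM per 1000 bases of exon (log axis) from the summed counts of the LOC and MOC groups. Hsp90ab1, Hspa8 and Hsp90aa1 stand highest in both groups, at 190 to 640 CPM per 1000 bases.

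These abundant genes were present in every cell and varied less than most genes of their level. Hsp90ab1 ranged from 436 to 2666 CPM in LOC cells (median 1646) and from 269 to 3235 in MOC cells (median 1825). Hspa8 ranged from 353 to 2379 CPM (median 950) and from 557 to 2476 (median 1264). Hsp90aa1 ranged from 175 to 1545 CPM (median 761) and from 244 to 1912 (median 853). The groups overlapped over most of their range in all 3 genes, and their mean differences of log2(CPM + 1), LOC minus MOC, were -0.29, -0.34 and -0.39. The SD of log2(CPM + 1) over the 31 cells was 0.74 for Hspa8, 0.80 for Hsp90aa1 and 0.82 for Hsp90ab1. Among 107 genes of at least 500 CPM with a read in every cell, the median SD was 1.13 and 9, 17 and 20 genes had a lower SD than these 3.

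The remaining chaperones of organelles were also widely present. Hspa5 had a median of 245 CPM in LOC and 328 CPM in MOC cells, with a highest value of 1216 CPM in MOC cell 2. Hsp90b1, the HSP90 of the ER, had 171 and 138 CPM, and Hspa9, the HSP70 of mitochondria, 132 and 109 CPM. Hspd1 and Hspe1, which form the mitochondrial HSP60 and HSP10 folding chamber, had medians of 49.7 and 75.1 CPM in LOC cells and of 55.2 and 69.9 CPM in MOC cells. No member of the 3 mitochondrial or the 2 ER HSP70 and folding genes met the size rule defined below.

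The HSP110 genes act as nucleotide exchange factors of HSP70 and were read in all cells. Hspa4 had a median of 53.0 CPM in LOC and 60.1 in MOC cells, Hspa4l 192 and 128, and Hsph1 101 and 98.8. The highest Hsph1 value was 1754 CPM in LOC cell 13, against 312 CPM in the next cell, LOC cell 14. That 1 library held 46.1% of all LOC counts of Hsph1, and the summed LOC level was 206 CPM with it and 117 CPM without it. The MOC level was 114 CPM.

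The heat-inducible HSP70 genes were low in most cells. Hspa1a was read in 50% of LOC cells (9 of 18, 95% Clopper-Pearson interval 26.0 to 74.0) and in 61.5% of MOC cells (8 of 13, interval 31.6 to 86.1). Its median was 0.36 CPM in LOC and 1.44 CPM in MOC cells. LOC cell 13 had 854 CPM, from 659 reads, where the next highest values were 58.5 CPM in LOC cell 12 and 55.2 CPM in MOC cell 5. LOC cell 13 held 89.5% of the LOC counts, and the summed LOC level was 51.6 CPM with it and 5.71 CPM without it, against 9.53 CPM in MOC. Hspa1b, its near-identical neighbour, had 0 reads in LOC cell 13 and reached at most 12.8 CPM in LOC and 12.9 CPM in MOC cells. Reads of Hspa1a only were found in 7 libraries, of Hspa1b only in 8, of both in 10 and of neither in 6. Of the 75-base windows of Hspa1a, 52.7% are found in Hspa1b as well, so reads of the pair can be assigned to either gene, and the authors' treatment of such reads is not stated in what was used here.

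Other inducible members were also high in LOC cell 13, which was singled out after its values were seen. The list of 10 heat-inducible members holds Hspa1a, Hspa1b, Hspb1, Hsph1, Hspd1, Hspe1, Dnaja1, Dnajb1, Hsp90aa1 and Hspa8, the last being abundant without heat as well. Hspb1, a small heat shock protein that holds unfolded proteins, had 174 CPM there, against 49.7 CPM in LOC cell 15 as the next highest. Dnajb1, the main inducible DnaJ partner of HSP70, had 308 CPM, Hspd1 220 CPM and Hspe1 268 CPM, each the second highest of 31 cells. Hsp90aa1 had 1545 CPM, the third highest, and Hspa8 2224 CPM and Dnaja1 397 CPM, the fourth highest in both genes. LOC cell 13 was thus the highest cell for 3 of the 10 inducible members, among the highest 2 for 6 and among the highest 5 for 9. Over all measured genes the shares were 3.75%, 7.68% and 16.7%. Hspa1b was the exception among the 10. The 10 genes together summed to 7744 CPM in this cell, against a median of 2415 CPM in LOC and 2390 CPM in MOC cells. The next highest sums were 5213 CPM in MOC cell 3, 4929 CPM in MOC cell 4 and 4279 CPM in LOC cell 15. The other 9 without Hspa8 summed to 5520 CPM in LOC cell 13, again the highest of all cells, against medians of 1309 and 1443 CPM.

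**Figure D2:**
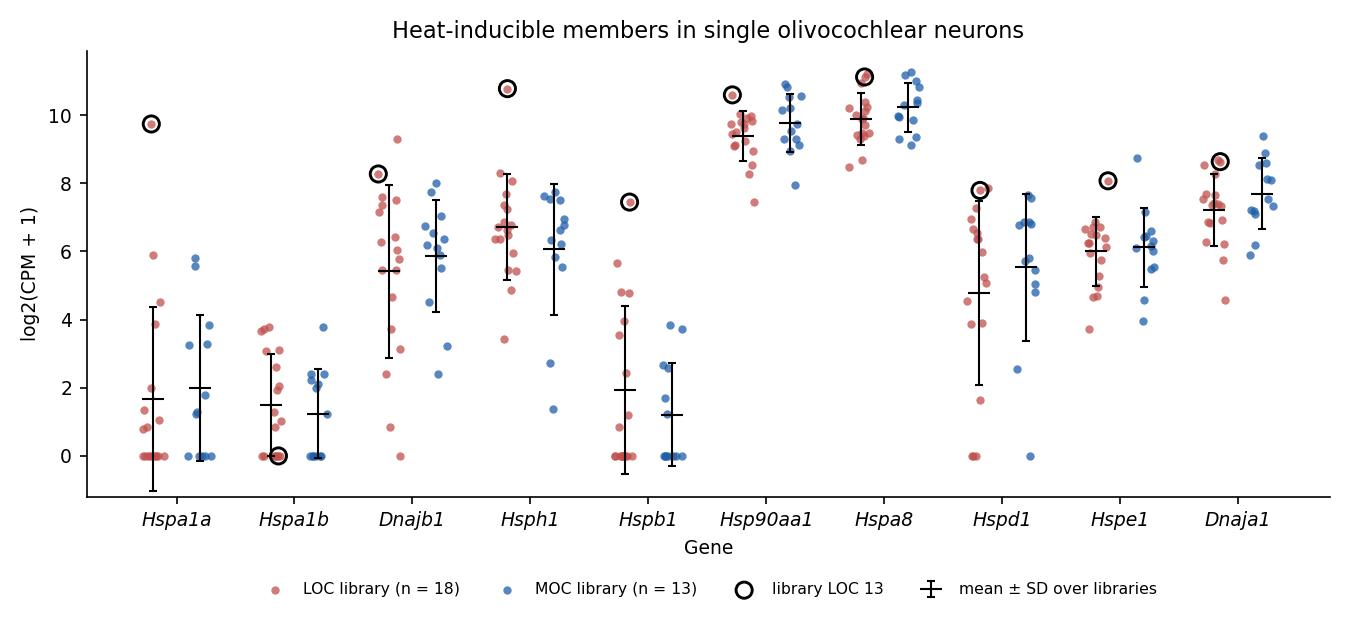
Log2(CPM + 1) of the 10 heat-inducible members in each of the 18 LOC and 13 MOC cells (points), with LOC cell 13 circled and lines for the mean and SD over cells. LOC cell 13 is the highest point for Hspa1a, Hsph1 and Hspb1, and has 0 reads of Hspa1b.

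Not every chaperone was high in LOC cell 13. For Hspa5 the cell ranked 23 of 31 at 179 CPM, and 21 of the 65 members had 0 reads. The cell had reads of 44 members and of 9128 genes, against LOC medians of 49.5 and 11481. Members with their highest value there numbered 6 of 65 (9.23%), where 3.75% of all measured genes had theirs in this cell. LOC cell 15 held the highest value of 7 members, with 3.61% of all measured genes. MOC cells 2 and 4 held that of 8 members each, with 8.89% and 6.26% of all measured genes. In LOC cell 13 the 3 besides the inducible genes were Dnajb12, Dnajc13 and Dnajb2. Dnajb12, a DnaJ protein of the ER membrane, had 296 CPM (next 60.3). Dnajc13, which acts on endosomes, had 119 CPM (next 65.6), and Dnajb2, a neuronal DnaJ, 237 CPM (next 229). Of 34 heat shock factors and HSP70 or HSP90 partners, 15 had LOC cell 13 among their highest 5 cells. Over all measured genes the share was 16.7%. The co-chaperone Bag3 had 232 CPM and Stip1, which joins HSP70 to HSP90, 400 CPM, each rank 2 of 31. Bag1 had 15.6 CPM there, rank 26, and Hsbp1 98.5 CPM, rank 28, while Trap1 and Tomm34 had 0 reads. The collagen chaperone gene Serpinh1 had 1.30 CPM there, rank 21 of 31. In the same cell the summed immediate early genes, which respond quickly to neuronal activity and other stimuli, were at 7471 CPM, the highest of all cells, with Fos at 4976 CPM and Atf3 at 0. Of these 13 genes, 6 had LOC cell 13 among their highest 5 cells. Their mean log2(CPM + 1) was 6.72 in LOC cell 13 and higher, at 6.79, in LOC cell 4. The cell had 584 cholinergic reads and 771556 counts in all, and its microglial sum of 32.4 CPM was the lowest of all cells. Its summed level of 5 inhibitory neuron markers, 1012 CPM, was the highest of the LOC cells, the next being 984 CPM, while MOC cells reached 2992 CPM. Gad2, which makes the transmitter GABA, was at 867 CPM, the highest of all cells (next 617), while Slc6a5 was at 0 and Slc32a1 at 3.89 CPM. The part of these values in the result was not tested.

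The small heat shock proteins differed widely in level. Hspb8, which works with Bag3 in the clearance of misfolded proteins, had the highest level per length of its family, 67.6 CPM per 1000 bases over all cells. It was read in 16 LOC cells (0 to 601 CPM, median 66.3) and in 10 MOC cells (0 to 770 CPM, median 10.6). MOC cell 3 held 60.7% of the MOC counts, and the summed MOC level was 123 CPM with it and 53.7 CPM without it. Hspb6 was below 6 CPM in both summed groups, and Hspb7 was read in 3 LOC and 2 MOC cells.

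The DnaJ genes, 4 of class A, 11 of class B and 25 of class C, made up most of the members. Dnajc5 (cysteine string protein), which keeps synaptic vesicle proteins folded, had medians of 208 and 209 CPM, and Dnajc6 (auxilin), which recruits Hspa8 to clathrin coats, 73.9 and 65.5 CPM. Both were read in all 31 cells. Dnaja1 and Dnaja2, general partners of HSP70 in the cytosol, had medians of 167 and 129 CPM in LOC cells and 185 and 106 CPM in MOC cells. Dnajb1 was read in 17 of 18 LOC and all 13 MOC cells with medians of 58.8 and 71.9 CPM. LOC cell 5 held 44.1% of the LOC counts of Dnajb1. Dnajb9 and Dnajb11, partners of Hspa5 in the ER, had medians between 30.3 and 39.7 CPM in both groups.

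LOC and MOC cells were then compared gene by gene, to see which chaperone transcripts set the recorded cell bodies of these olivocochlear groups apart. With no replicates, genes were sorted by a rule of size with 3 parts. The summed CPM of the higher group had to be 2 or more times the lower, the mean of log2(CPM + 1) over cells had to exceed the other by 1 or more, and a read had to be found in 25% or more of the higher group's cells. In LOC, 2 of the 62 measured members met it (Dnajc14 and Hspb3), where 6.07% of all 17754 measured genes did. In MOC, 3 members met it (Dnaja3, Dnajc21 and Dnajc28), where 5.67% of all measured genes did. In this main setting the counts lie near or below the background shares and show no excess of members. Both moved under other settings, which are given in the closing section. The median difference was -0.27 over the measured members, with 25 above 0 and 37 below, and -0.07 over all measured genes. None of the 10 heat-inducible members met the rule in either direction, and their median was -0.34. With library sizes adjusted by TMM, a scaling that lowers the median of all measured genes to -0.13, 2 members were past the rule toward LOC and 6 toward MOC, Dnajc2, Dnajc16 and Dnajc27 being added, where 5.1% and 6.94% of all measured genes were. The groups overlapped in every measured member, and 0% of all measured genes had groups that did not overlap.

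**Figure D3:**
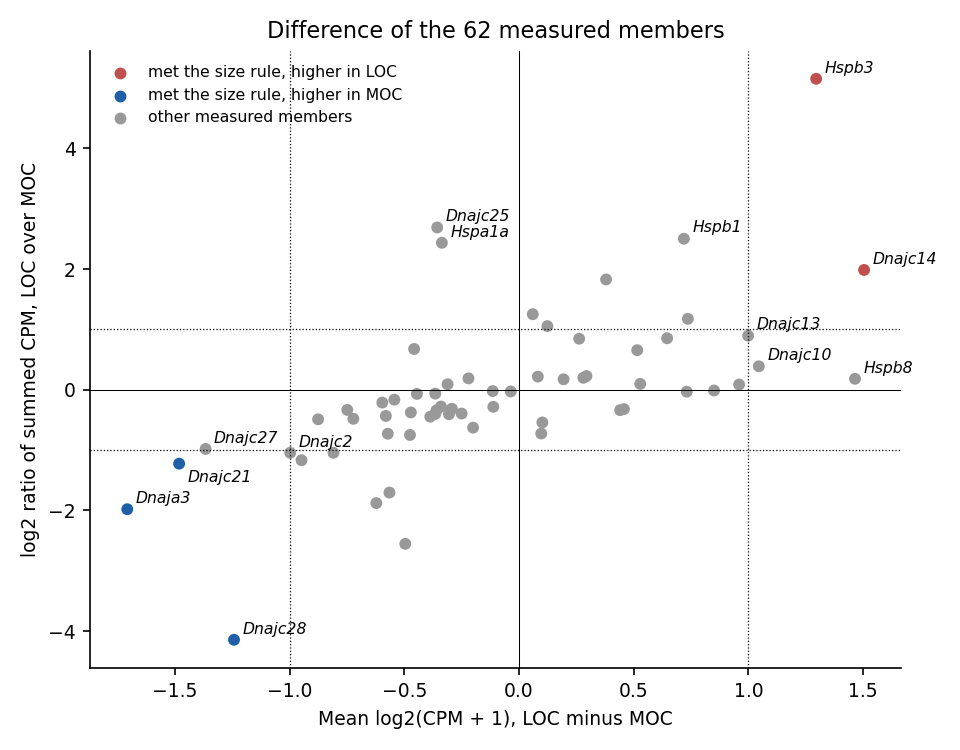
Difference of mean log2(CPM + 1), LOC minus MOC, against the log2 ratio of summed CPM for the 62 measured members, with dotted lines at the limits of the size rule. Dnajc14 and Hspb3 lie past both limits toward LOC, and Dnaja3, Dnajc21 and Dnajc28 toward MOC.

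Dnaja3 encodes Tid1, the DnaJ partner of HSP70 inside mitochondria (chr16:4639989-4707695, plus strand, GRCm38). It was the member with the widest difference toward MOC and the only one to meet the rule under each of the 10 other settings and without each of the 31 libraries in turn. All 13 MOC cells had reads (2.88 to 607 CPM, median 36.4) and 14 of 18 LOC cells did (0 to 87.5 CPM, median 15.1). The summed level was 26.2 CPM in LOC (95% Poisson interval 23.6 to 29.0) against 103 CPM in MOC (97.9 to 109). The means differed by -1.71. MOC cells 2, 5 and 8 were at 607, 515 and 202 CPM, above every LOC cell, and the other 10 MOC cells lay within the LOC range. Without MOC cell 2 the MOC level was 67.7 CPM. Its annotated exons overlap Coro7 on the opposite strand by 153 bases, and the Coro7 level was 19.2 CPM in LOC against 102 CPM in MOC. They also overlap Vasn on the same strand by 160 bases, and the Vasn level was 58.4 and 62.9 CPM. Over the 31 cells the Spearman correlation of Dnaja3 was 0.16 with Coro7 and 0.39 with Vasn. These libraries keep no strand, so reads in either overlap cannot be told apart.

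Dnajc14, a DnaJ protein of the ER membrane (chr10:128804062-128819446, plus strand), had the widest difference toward LOC. It had a read in 13 of 18 LOC cells (0 to 158 CPM, median 16.3) and in 6 of 13 MOC cells (0 to 40.2 CPM, median 0). The summed levels were 28.5 CPM (25.8 to 31.4) and 7.19 CPM (5.83 to 8.76), and the means differed by 1.50. The 4 LOC cells 15, 3, 18 and 14, at 158, 82.6, 49.2 and 44.0 CPM, lay above every MOC cell, and the other 14 LOC cells lay within the MOC range. Of its 75-base windows 25% are also found in Ormdl2, whose exons overlap it by 1114 bases on the opposite strand. The Ormdl2 level was 10.5 CPM in LOC against 15.8 CPM in MOC. With a pseudocount of 10 in place of 1 the difference was 0.76 and the rule was no longer met.

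Hspb3, a small heat shock protein best known from muscle (chr13:113662896-113663676, minus strand), was read in a minority of cells. Reads came from 38.9% of LOC cells (7 of 18, interval 17.3 to 64.3) and 23.1% of MOC cells (3 of 13, interval 5.0 to 53.8). LOC cells 7, 12, 14, 15 and 18 held between 25.3 and 51.8 CPM, while no MOC cell exceeded 2.44 CPM. The summed levels were 10.5 CPM (8.84 to 12.3) and 0.29 CPM (0.08 to 0.75), the latter from 4 counts, and the means differed by 1.30. The median was 0 in both groups, so a comparison of medians shows no difference. With a pseudocount of 10 the rule was not met either. LOC cells 7 and 14 are among the libraries with fewer than 10 cholinergic reads, and the rule was also met without those libraries.

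Dnajc21 and Dnajc28 were lower in level. Dnajc21, a DnaJ protein of ribosome assembly (chr15:10446756-10470516, minus strand), had 7.15 CPM in LOC (0 to 58.2, median 1.21) and 16.7 CPM in MOC (0 to 76.2, median 11.5). It had a read in 11 of 18 and 11 of 13 cells, and the means differed by -1.48. MOC cell 3 held 44.3% of the MOC counts, and without it the rule was not met. With a pseudocount of 10 the difference was -0.57 and the rule was not met either. Dnajc28, a little-studied DnaJ gene (chr16:91614254-91619026, minus strand), had a summed level of 1.54 CPM in LOC (0 to 11.7, median 0) and 27.3 CPM in MOC (0 to 190, median 1.34). MOC cell 8 held 74.2% of the MOC counts of Dnajc28, and without it the MOC level was 7.88 CPM, the difference moved from -1.24 to -0.78 and the rule was not met. Nor was it met without MOC cell 3, where the difference was -0.95, after thinning (-0.91) or with a pseudocount of 10 (-0.61). MOC cell 8 had the highest microglial sum and no cholinergic read, and the part of this in the difference was not tested.

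**Figure D4:**
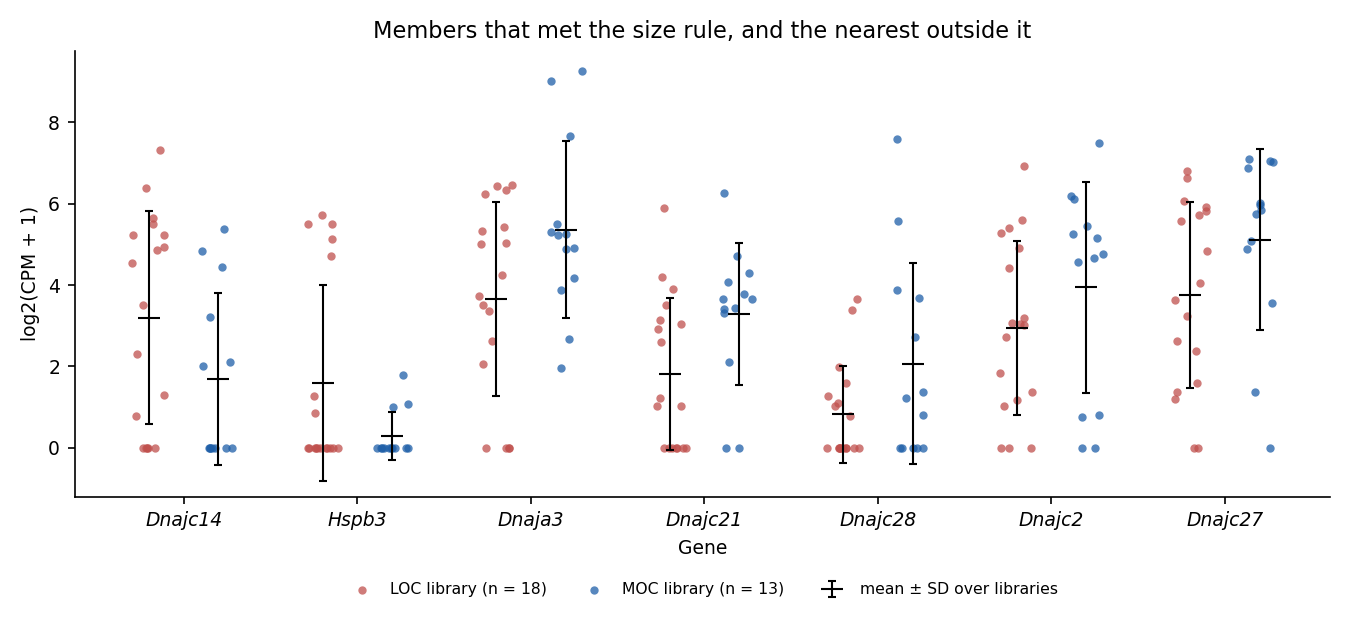
Log2(CPM + 1) of the 5 members that met the size rule and of Dnajc2 and Dnajc27, which lie just outside it, in each of 18 LOC and 13 MOC cells (points), with the mean and SD over cells. The groups overlap in every gene, and the MOC values of Dnajc28 are carried by 1 cell at 190 CPM.

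Several members met the rule in part. Dnajc2 and Dnajc16 came nearest to the limit of the mean difference among those past the ratio. Dnajc2, which acts on ribosomes, had 17.4 and 35.9 CPM in LOC and MOC cells with a difference of -0.998. Dnajc16 had a ratio of 2.25, MOC over LOC, and a difference of -0.95. Dnajc27, Dnajc10 and Hspb8 were past the limit of the mean difference but not of the ratio. Dnajc27, a small GTPase with a DnaJ domain, had 30.6 and 60.4 CPM, a ratio of 1.97, and a difference of -1.37. Dnajc10, a disulfide reductase of the ER, had 37.2 and 28.4 CPM and a difference of 1.05. Hspb8 had a difference of 1.47 in the means but 140 and 123 CPM in the summed counts. The Hspb8 level had a Spearman correlation of 0.83 with the number of cholinergic reads over the 31 cells, and over the libraries with at least 10 such reads its difference was 0.53. The part of this in the difference was not tested. Without MOC cell 3 the difference of Hspb8 was 1.94 and the rule was met. Dnajc13 missed both limits, with 25.5 and 13.7 CPM, a ratio of 1.86, and a difference of 0.999. Dnaja2 had a difference of 0.96. In Hspb8, Dnajc10 and Dnaja2 the mean over cells and the summed counts gave different sizes.

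Over all 31 cells together, Hspa8 and Hsp90aa1 had the highest correlation of any pair. The Spearman correlation of their CPM was 0.83 over the 31 cells, 0.74 in the 18 LOC and 0.93 in the 13 MOC cells. It was 0.82 over the 22 cells with at least 10 cholinergic reads and 0.86 without the 6 libraries above 10% oligodendrocyte markers. The other leading pairs were Hspa4l with Hspb8 (0.61), Hsp90aa1 with Hsp90ab1 (0.59), Dnajc10 with Dnajc13 (0.58) and Hspa4l with Hsph1 (0.58). Within the groups these differed: Dnajc10 with Dnajc13 had 0.81 in LOC, above Hspa8 with Hsp90aa1, and 0.13 in MOC, and Hspa4l with Hsph1 had 0.33 in LOC and 0.90 in MOC. Hspa4l, like Hspb8, was related to the number of cholinergic reads (0.66 over the 31 cells), and its correlation with Hspb8 was 0.72 over the cells with at least 10 such reads. Over the 1540 pairs of 56 members read in at least 50% of cells, the median was 0.04, 895 pairs (58.1%) were above 0 and the range was -0.57 to 0.83. Hspa8 and Hsp90aa1 stood at the upper end of this range. The members share libraries and depth, and 68.6% of the 75-base windows of Hspa8 and 53.1% of those of Hsp90aa1 occur in other annotated genes.

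**Figure D5:**
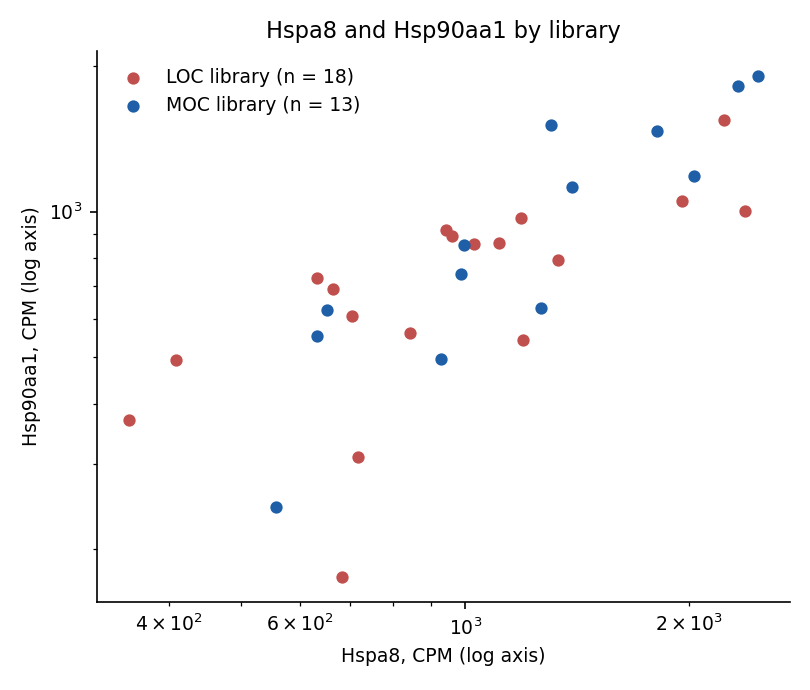
CPM of Hsp90aa1 against CPM of Hspa8 (both log axes) in the 18 LOC and 13 MOC cells. Cells with more Hspa8 had more Hsp90aa1 in both groups (Spearman correlation 0.74 in LOC and 0.93 in MOC).

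Most correlations among the inducible members were low, and several of these genes are sparse. Over the 36 pairs of inducible members read in at least 50% of cells, the median correlation was 0.09, and 0.02 without LOC cell 13. The highest after Hspa8 with Hsp90aa1 was 0.51, between Hspd1 and Hsph1. Hspb1 was read in fewer cells, and its correlation with Hspa1a was 0.54, and 0.48 without LOC cell 13. The correlation between Hspa1a and Hsph1 was 0.01, and that between Hspa1a and Hspa1b was -0.27. The mean log2 level of the inducible members had a Spearman correlation of 0.49 with that of the immediate early genes over the 31 cells and of 0.44 without LOC cell 13. With the cholinergic counts it was 0.53. The share of counts in all members had a correlation of -0.55 with the oligodendrocyte sum and of -0.49 with the astrocyte sum. Their part in the levels was not tested.

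Other genes of protein folding were taken from lists made from textbook knowledge. The background shares were 6.07% of all measured genes past the size rule toward LOC and 5.67% toward MOC. Of 34 heat shock factors and HSP70 or HSP90 partners, 3 were past the rule toward LOC and 0 toward MOC. These were Unc45a, a myosin chaperone (99.7 and 40.8 CPM), Sgtb, an HSP70 co-chaperone (47.9 and 13.3 CPM), and Sec63, an ER translocation factor with a DnaJ domain (33.2 and 16.1 CPM). Unc45a and Sgtb were highest in LOC cell 14 (474 and 317 CPM), which had 0 cholinergic reads, and Sec63 in LOC cell 9, which had 4. Toward LOC and MOC the counts were 2 and 1 with TMM sizes and 3 and 2 in the authors' normalized table. They were 1 and 0 both with a pseudocount of 10 and after thinning. Without the 3 libraries highest in microglial markers they were 2 and 2, and without those above 10% oligodendrocyte markers 5 and 1. The median difference of the 34 was -0.23. Of 8 subunits of the TRiC chaperonin, which folds actin and tubulin, only Tcp1 met the rule, higher in MOC (89.5 and 205 CPM, difference -2.62). Tcp1 no longer did over libraries with at least 10 cholinergic reads. Of 18 genes of ER folding and the unfolded protein response, 2 were past it toward LOC and 0 toward MOC. These were the transcription factor Xbp1 (217 and 87.9 CPM) and the disulfide isomerase Pdia3 (196 and 87.7 CPM), and the median of the list was 0.35. In the authors' normalized table neither of the pair met the rule, and 1 gene of the list met it toward MOC. Of a list of 10 members working in the ER, which leaves out Dnajc14, 0 met the rule, and their median was -0.34. Of 13 immediate early genes, Nr4a1 met it in LOC and Atf3, Zfp36 and Socs3 in MOC, with a median of -0.75. The count toward MOC was 2 in the authors' normalized table and 1 both with a pseudocount of 10 and after thinning. Zfp36 and Socs3 were highest in MOC cell 8 (377 and 221 CPM), and Atf3 in LOC cell 9 (415 CPM). The Nr4a1 call was lost with TMM sizes, in the authors' normalized table, with a pseudocount of 10, after thinning and over libraries with at least 10 cholinergic reads. Of 8 oxidative and metal stress genes, Hmox1 and Gclm met it in MOC. MOC cell 8 held 63.1% of the MOC counts of Hmox1. Of the 12 microglial markers, 7 met the rule in MOC and all 12 were lower in LOC, and of the 5 inhibitory neuron markers Gad1 met it in MOC.

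Read assignment bears on several members. Of the 65, 32 have at least 1 window of 75 bases, the read length, that occurs in another annotated gene, and 17 have at least 10% of such windows. The share is 33.7% for Hspd1, 29.1% for Hspe1 and 47.3% for Hspb1, through pseudogenes or close copies, and 0 for Hsph1, Hspb3, Dnajc21 and Dnajc28. Only the longest protein-coding transcript of each member was searched. For Dnaja3 that transcript holds 2648 of the 3912 exon bases and has a share of 0, but the exons that overlap Coro7 and Vasn lie outside it. The levels of Hspa8, Hsp90aa1, Hspa1a, Hspa1b, Hspb1, Hspd1 and Hspe1 are uncertain to the extent of their shares. The same holds for Dnaja1 (26.2%) and the other members with such windows.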

How the data were processed

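Single neurons were sequenced after patch clamp (Smart-seq2, Nextera, pairs of 75 bp on a MiSeq, per the series' design text and the labels). The authors deposited raw read counts per gene for 31 cells and a second table of signal values for 20784 genes, named by them as CPM after TMM adjustment. Builds GRCm38 and mm10 and the tools STAR 2.5.2, bcl2fastq, limma, edgeR and DESeq2 are listed without roles, per the submitters' processing notes. The counting tool and its annotation: not given in the sources used here.

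CPM used the total over the 55421 mouse genes, leaving out 19 added sequences with 0.017% of the counts. Levels per length used the exon union of GENCODE M21 (GRCm38), and coordinates count from 1. Intervals are exact 95% Poisson for summed counts and Clopper-Pearson for shares of cells. The Poisson intervals treat reads as independent, which amplified reads without molecular identifiers are not, and leave out the spread between cells. The Clopper-Pearson intervals treat cells as independent draws, although the animals behind them are unknown. In 1 cell a count of 0 allows up to 3 counts, or 1.14 to 8.42 CPM. The lowest summed value in a ratio was 3 counts over the group. Medians and SDs describe the spread between cells. TMM sizes came from edgeR 4.0.16 under R 4.3.3. Promoter windows were read from RefSeq (GRCm38.p6), and start sites follow that table.

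The members, gene lists and rules were chosen with earlier results of these data known, and LOC cell 13 was singled out after its values were seen. Named members were those that met the size rule, the 10 heat-inducible members, the 10 with the highest level per length, the 5 per direction with the widest mean difference among those with reads in 50% or more of cells in the higher group, and the 5 leading pairs. Some further members are named by role. The values of 1 member are not reported here. Alternatives were TMM sizes, the deposited normalized values, a pseudocount of 10, summed counts, medians, thinning, no filter, libraries chosen by marker reads, and each library left out, and 1 more, summed counts without LOC cell 13, was added after the data were seen.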

Additional observations from a re-analysis of the deposited data

How the results depend on the processing

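The number of members meeting the size rule moved between settings, and so did the share of all measured genes meeting it, given here in brackets. In LOC it was 2 (6.07%), and 0 with a pseudocount of 10 (2.08%), 8 with summed counts alone (20.5%), 1 with medians (6.13%), 4 after thinning (7.58%), 4 without the 3 cells highest in microglial markers (7.37%) and 7 without libraries above 10% oligodendrocyte markers (9.28%). In MOC it was 3 (5.67%), and 6 with TMM sizes (6.94%), 6 in the authors' normalized table (7.31%), 1 with a pseudocount of 10 (1.18%), 9 with summed counts (20.5%), 6 with medians (6.79%), 5 after thinning (6.98%), 7 with at least 10 cholinergic reads (6.91%), 7 without those 3 libraries (5.83%) and 5 without those above 10% oligodendrocyte markers (5.16%). Between 60 and 64 members were measured under these settings. The counts of 6 or 7 members therefore lie above the bracketed shares, and the counts of 0 to 2 in LOC lie below them. Leaving out each library in turn gave 2 to 4 members in LOC and 3 to 6 in MOC. The setting with summed counts drops the limit on the mean difference, so more genes can pass it. A pseudocount of 10 shrinks the mean differences of genes at low CPM, so fewer can. The cause of the other shifts was not tested.

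The median difference of the measured members ran from -0.32 to -0.10 over left-out libraries, and was 0.05 without the libraries above 10% oligodendrocyte markers. That of the inducible members ran from -0.44 to -0.17. It was 0.05 without the oligodendrocyte-rich libraries, -0.04 with at least 10 cholinergic reads, 0.16 with summed counts and -0.42 with summed counts without LOC cell 13. The difference of Hspa1a was -0.34 in the means and 2.32 in the summed counts. No paired analysis was possible because each library is 1 cell and no number in the labels is said to pair LOC with MOC cells. The level order kept Hsp90ab1 first with the longest transcript as length. A count of 0 allows up to 8.42 CPM in the shallowest cell.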
